A study of Mus musculus with 4 samples.

Results

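The nuclear genes of the mitochondrial respiratory chain and ATP synthase were followed in the livers of male C57BL/6 mice, a common inbred strain, fed a diet high in fat and sucrose. The 4 groups were 0, 5, 10 and 15 weeks of this diet, begun at 5 weeks of age, so that the animals were 5, 10, 15 and 20 weeks old. Each time point is 1 array, the study's design text names 4 mice for each, and whether their RNA was pooled is not given in the sources used here. No comparison therefore has a replicate or a test, and time on the diet cannot be told apart from age.

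The members were chosen by name, as every gene whose name in the scanner files began with Nduf, Uqcr, Atp5 or Cox4 to Cox8, together with Sdha, Sdhb, Sdhc and Sdhd. This gave 93 of the 34761 genes on the array, covered by 136 of its 55681 probes. By role, 43 belong to complex I, 4 to complex II, 8 to complex III, 20 to complex IV and 16 to complex V. The other two, Atp5sl and the pseudogene Atp5c1-ps, belong to none. Within the complexes, 74 members are structural subunits in their widely expressed form. The rest are assembly factors, tissue isoforms and relatives.

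The respiratory chain sits in the inner mitochondrial membrane. Complex I (NADH dehydrogenase) and complex II (succinate dehydrogenase) pass electrons to ubiquinone, complex III (cytochrome bc1) passes them on to cytochrome c, and complex IV (cytochrome c oxidase) hands them to oxygen. Complexes I, III and IV pump protons, and complex V (ATP synthase) lets the protons flow back through a rotating ring of c subunits to make ATP. The liver uses this chain to burn fatty acids and to pay for glucose and urea synthesis, and hepatocytes hold many mitochondria.

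Several transcription factors are known to act on these genes, among them NRF1, GABP, YY1 and the estrogen-related receptors (ERR). The stretches below are the 200 bases before the transcription start in RefSeq (build GRCm38.p6), all on the minus strand and written 5′ to 3′. They are shown for Ndufa8, the structural subunit furthest below the other genes at 15 weeks, for the 3 genes of the ATP synthase c subunit, which differed in their values, and for Cox6b2, a testis isoform whose level was lowest at 15 weeks. The stretches lie at chr2:36049339-36049538 (Ndufa8), chr11:96075632-96075831 (Atp5g1), chr15:102671048-102671247 (Atp5g2), chr2:73911327-73911526 (Atp5g3) and chr7:4753095-4753294 (Cox6b2). Capitals mark matches to the NRF1 motif in Ndufa8 and Atp5g2 and to the ERR motif in Atp5g3.
Ndufa8: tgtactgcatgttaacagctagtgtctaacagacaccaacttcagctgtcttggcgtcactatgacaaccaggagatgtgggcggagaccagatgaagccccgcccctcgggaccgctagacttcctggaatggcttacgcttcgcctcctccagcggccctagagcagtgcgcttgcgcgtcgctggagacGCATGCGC
Atp5g1: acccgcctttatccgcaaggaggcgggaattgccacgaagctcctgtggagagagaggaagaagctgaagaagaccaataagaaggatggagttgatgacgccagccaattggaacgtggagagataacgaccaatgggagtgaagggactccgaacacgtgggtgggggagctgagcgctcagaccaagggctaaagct
Atp5g2: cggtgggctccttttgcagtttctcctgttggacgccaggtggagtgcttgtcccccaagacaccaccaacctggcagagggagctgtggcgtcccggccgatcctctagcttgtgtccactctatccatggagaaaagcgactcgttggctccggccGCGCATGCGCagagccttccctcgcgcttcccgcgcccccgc
Atp5g3: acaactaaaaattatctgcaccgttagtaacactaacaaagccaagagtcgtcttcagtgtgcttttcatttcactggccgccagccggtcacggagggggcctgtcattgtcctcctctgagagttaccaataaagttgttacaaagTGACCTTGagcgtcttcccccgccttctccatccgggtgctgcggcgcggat
Cox6b2: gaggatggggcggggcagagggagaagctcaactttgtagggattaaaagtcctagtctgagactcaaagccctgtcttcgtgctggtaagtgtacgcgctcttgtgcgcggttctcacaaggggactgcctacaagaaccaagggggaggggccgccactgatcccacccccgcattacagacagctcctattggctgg

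The 3 genes of the c subunit encode the same mature protein, and their upstream stretches held different motifs. Atp5g2 carried the NRF1 motif on both strands, overlapping, Atp5g3 carried an ERR match 52 bases before the start, and none of the 4 motifs was found in the Atp5g1 or Cox6b2 stretch. Among all members, 76 matched a promoter of 300 bases (250 before the start and 50 after). The NRF1 motif GCGCATGC, searched on both strands as were the others, was in 12 of these 76 (15.8%) and in 2.80% of the 27025 promoters. The YY1 motif AAGATGGC was in 10 (13.2%, against 2.88% of all). The ERR motif CAAGGTCA was in 4 (5.26%, against 1.53%), and the ETS motif CCGGAAGT, which GABP binds, in 5 (6.58%, against 1081 of the 27025). At least 1 of the 4 motifs was in 29 of the 76 (38.2%), against 10.6% of all promoters, and in 0 of the 4 matched tissue isoforms of complex IV. These are matches of letters, not shown binding sites.

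Levels are given as the log2 of the spot's processed fluorescence over the 75th percentile of its array, so that a level of 0 is that percentile. A probe's level depends on its own chemistry, so levels are compared between arrays for 1 gene and not between genes. A difference between 2 arrays is given on the log2 scale relative to the median difference of all genes measured on both, called the median gene here. The median gene itself moved by -0.02, -0.01 and -0.25 at 5, 10 and 15 weeks against 0 weeks before that step. A gene was counted as measured where both arrays showed its spot well above background, and a relative difference of at least 1.5-fold was counted as lower or higher. All 3 comparisons with 0 weeks use the same 0-week array, so an odd value there would enter all of them.

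The signal was strong enough for nearly every member. At 0, 5, 10 and 15 weeks, 90, 91, 91 and 91 of the 93 members were well above background. The testis isoforms Cox7b2 and Cox8c were above it on no array, and the muscle isoform Cox8b on all but the 0-week array. Of the 74 structural subunits, 73 had probes in the brightest 20% of measured genes, and no spot was saturated. Probes spotted 10 times on an array had a median SD of 0.064 to 0.073 log2 units within an array. This is the only repeat in the data, and the spread between arrays or animals is unknown.

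The structural subunits of the chain were slightly and broadly lower than the median gene after the diet began. At 5 weeks their median relative difference was -0.14, or 1.10-fold lower, and 71 of the 74 lay below the median gene. At 10 weeks the median was again -0.14, with 64 of 74 below. At 15 weeks it was -0.33, or 1.26-fold lower, and all 74 lay below. From 5 to 10 weeks the median was -0.01 with 40 of 74 below, and from 10 to 15 weeks it was -0.18 with 71 of 74 below. By construction 50% of all measured genes lie below the median gene, and 29.4%, 29.2% and 18.6% of all genes lay below these medians at 5, 10 and 15 weeks.

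The spread among the subunits was narrow. At 5 weeks the middle 50% of the structural subunits lay between -0.22 and -0.09, where that of all measured genes ran from -0.18 to 0.18. At 15 weeks it lay between -0.45 and -0.25, against -0.25 to 0.32 for all genes. For the brightest 20% of genes, which hold nearly all the subunits, the middle 50% ran from -0.14 to 0.11 at 5 weeks. At 15 weeks that of these bright genes ran from -0.32 to 0.07, a wider range that overlaps that of the subunits. With differences relative to the median gene, 66 of the 74 were highest at 0 weeks and lowest at 15 weeks, a pattern that 22.1% of the 16684 genes measured on all arrays had. All 74 were lowest at 15 weeks, against 52.6% of all genes. The shares of 22.1% and 52.6% are over genes of every brightness and were not taken for bright genes alone.

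**Figure D1:**
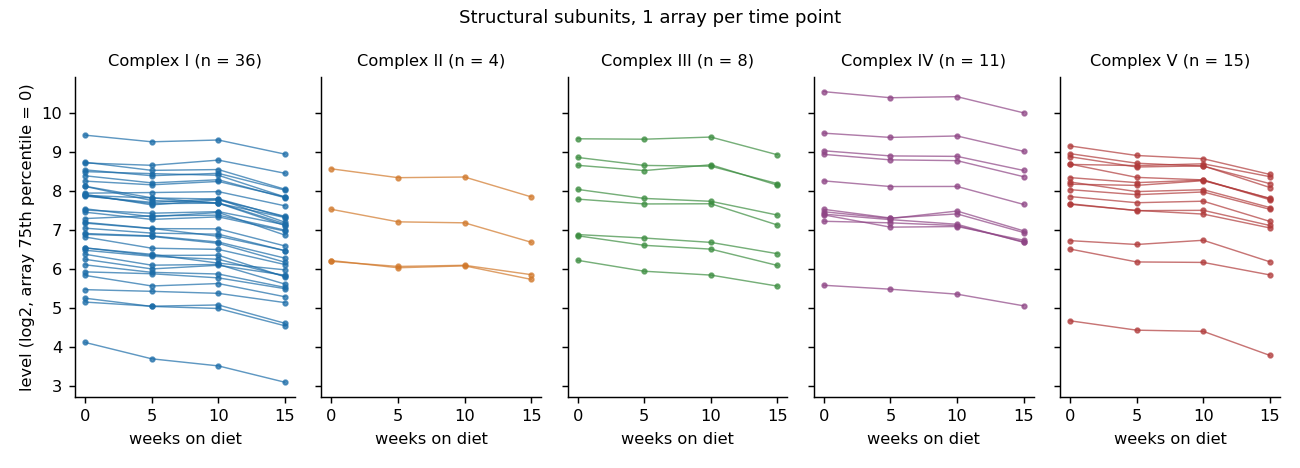
Levels of the 74 structural subunits on the 4 arrays, by complex; the x axis is weeks on the diet and the y axis the log2 level with each array's 75th percentile at 0. Each line is 1 gene on 1 array per time point, with no error bar; the lines run nearly in parallel, and the drop at 15 weeks includes the -0.25 by which the median gene moved.

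Few members passed the 1.5-fold line. At 5 weeks 3 of the 90 measured members were lower (3.33%), against 5.14% of all genes, and 1 was higher, against 6.98%. None of these 4 was a structural subunit: Cox7a1, Cox6b2 and Atp5c1-ps were lower, and Cox6a2 was higher. At 10 weeks 3 were lower, against 4.63% of all genes, and 1 was higher, against 7.56%. Of these, Ndufa8 was the structural subunit, and Cox6b2, Cox7a1 and Cox6a2 were isoforms. At 15 weeks 8 of 90 were lower (8.89%), against 8.14% of all genes, and 1 was higher, against 14.9%. The 8 were Ndufa8, Ndufs7, Sdhd, Atp5g1, Atp5o, Atp5s, Cox6b2 and Atp5c1-ps. From 5 to 10 weeks 1 member was lower (Cox8b), against 4.3% of all genes, and 1 was higher (Atp5c1-ps), against 4.62%. From 10 to 15 weeks 2 were lower (Atp5c1-ps and Atp5sl), against 6.99%, and 2 were higher (Cox8b and Cox6a2), against 12.9%.

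How far the members were lower at 15 weeks depended on the scale. As scaled to the 75th percentile, before the step to the median gene, the median of all members was -0.58, and against the spike-in controls, RNAs added in known amounts during labelling, it was -0.06. After quantile normalization, which gives all arrays the same distribution of signals, it was -0.08, and relative to the brightest 20% of genes it was -0.19. Bright genes as a class were lower at 15 weeks, with a median of -0.14 for the brightest 20% and -0.19 for the brightest 10%. At 5 and 10 weeks the brightest 20% lay at -0.01 and -0.02, and quantile normalization gave -0.13 and -0.13 for the members. The further difference from 10 to 15 weeks was -0.17 over all members and changed direction on some scales, to 0.05 after quantile normalization and 0.18 against the spike-in controls. Values against the spike-in controls are not relative to the median gene. On that scale the median of all genes was 0.26 at 15 against 0 weeks and 0.35 from 10 to 15 weeks. The members' median was below it in both.

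Markers of other cell types moved over the same arrays. Of all measured genes, 6.98%, 7.56% and 14.9% were higher at 5, 10 and 15 weeks, and 5.14%, 4.63% and 8.14% were lower. Of 15 macrophage markers, 13, 13 and 15 were higher at 5, 10 and 15 weeks, with medians of 0.94, 1.19 and 1.85. The log2 of their summed levels was 7.11, 7.96, 8.17 and 8.46 at 0, 5, 10 and 15 weeks. Such a sum adds levels on the linear scale, so the brightest genes weigh most. It is not relative to the median gene, which moved by -0.25 at 15 against 0 weeks. The 10 stellate cell markers had medians of -0.10, -0.55 and 1.37, with 5 lower and 0 higher at 10 weeks and 2 lower and 8 higher at 15 weeks. All 17 hepatocyte markers were above background on every array, with medians of -0.09, -0.09 and -0.50 at 5, 10 and 15 weeks and 7 lower at 15 weeks. The log2 of their summed levels was 14.27, 14.10, 14.19 and 13.61. The part of these shifts in the members' values was not tested, and in whole liver fewer cells of a type and less RNA per cell cannot be told apart.

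The 5 complexes gave similar values. At 5 weeks the medians over all measured members of complexes I to V were -0.14, -0.19, -0.15, -0.12 and -0.16, a range of 0.06. At 10 weeks they were -0.14, -0.16, -0.20, -0.12 and -0.21, a range of 0.09. At 15 weeks they were -0.31, -0.35, -0.41, -0.28 and -0.40, a range of 0.13. Complex IV stood nearest the median gene in each of the 3, and complexes III and V were the furthest from it at 10 and 15 weeks. With 1 array per time point the order of the complexes has no error.

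**Figure D2:**
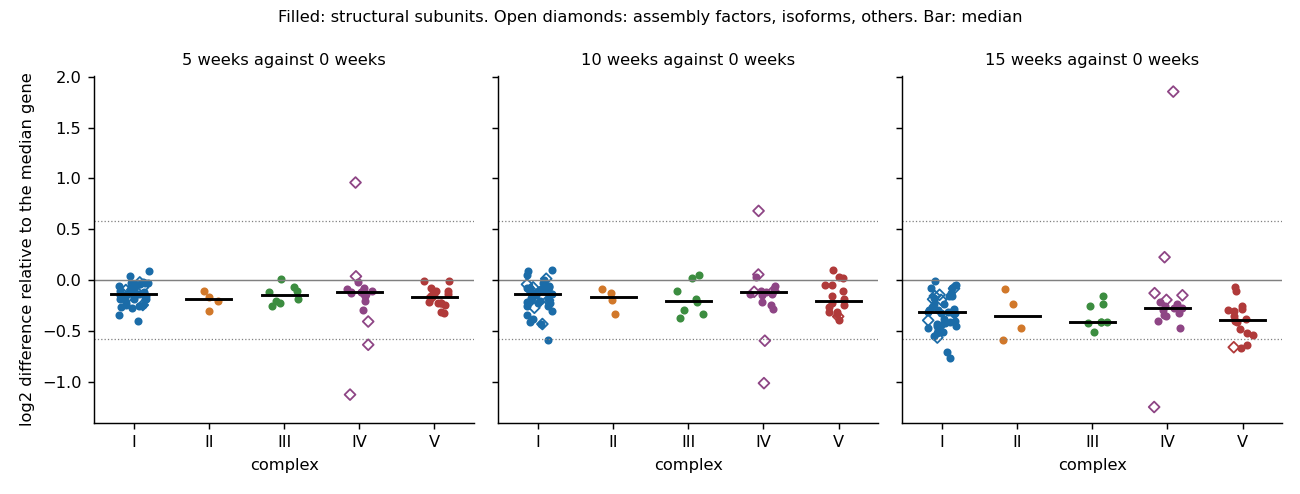
Relative log2 differences against 0 weeks of each measured member of complexes I to V (x axis) at 5, 10 and 15 weeks; filled points are structural subunits, open diamonds are assembly factors, isoforms and others, bars are medians and dotted lines mark 1.5-fold. Of the 74 filled points, 71 lie below the median gene at 5 weeks, 64 at 10 weeks and all at 15 weeks, when the medians span -0.28 to -0.41, and only complex IV has widely scattered open diamonds.

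In complex I, the core subunits, which carry the flavin and the iron-sulfur clusters, had a median of -0.43 at 15 weeks, the accessory subunits -0.33 and the Nduf-named assembly factors -0.19. The furthest core subunit was Ndufs7, which holds the last iron-sulfur cluster before ubiquinone (chromosome 10, probe at 79719478 to 79719537 in build mm9). Its level was 8.11, 7.75, 7.69 and 7.15 at 0, 5, 10 and 15 weeks. It was highest at 0 weeks and lowest at 15 weeks, with relative differences of -0.34, -0.41 and -0.71, the last being 1.635-fold lower.

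Ndufv1, which binds NADH and the flavin, had levels of 8.11, 7.82, 7.68 and 7.31 and was 1.47-fold lower at 15 weeks (-0.55). Its partner Ndufv2, which carries another iron-sulfur cluster, followed at -0.49, with levels of 6.53, 6.34, 6.34 and 5.79. Ndufs3, Ndufs1 and Ndufs8, further core subunits, lay nearer the median gene. At 15 weeks the values were -0.43 for Ndufs3, -0.31 for Ndufs1 and -0.29 for Ndufs8, and none of these 3 reached 1.5-fold at any time.

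Among the accessory subunits Ndufa8, which lies on the outer face of the membrane arm, was the structural subunit furthest below in the whole set. Its levels were 4.11, 3.69, 3.51 and 3.09, each lower than the one before. The relative differences were -0.40, -0.59 and -0.77, so that it was 1.71-fold lower at 15 weeks, and its probe (chromosome 2, 35891871 to 35891930 in mm9) was the only one of a structural subunit outside the brightest 20%. After quantile normalization the 15-week difference was -0.73 for Ndufa8 and -0.39 for Ndufs7. Against the spike-in controls it was -0.51 and -0.45, within 1.5-fold for both.

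A few subunits of complex I stayed near the median gene. Ndufs6, an accessory subunit needed late in assembly, had levels of 8.71, 8.65, 8.79 and 8.45, and its relative differences of -0.04, 0.08 and -0.01 were about the size of the repeat-spot SD. Ndufa7 lay at 0.09, 0.10 and -0.05, and Ndufa2 at 0.04, 0.05 and -0.08. The peripheral arm, which takes up electrons, and the membrane arm, which pumps protons, had medians of -0.30 and -0.34 at 15 weeks. Both arms therefore held subunits far below and subunits near the median gene.

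The 7 assembly factors named Nduf were all below the median gene at 15 weeks. Ndufaf4 was the furthest, with levels of 3.94, 3.90, 3.50 and 3.13 and relative differences of -0.02, -0.43 and -0.57. It did not differ from the median gene at 5 weeks by more than the spread of repeated spots. At the other end, Ndufaf7, a methyltransferase, lay at -0.10, -0.07 and -0.08.

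In complex II, the 2 catalytic subunits gave unlike values. Sdha, the flavoprotein that oxidises succinate, had levels of 6.19, 6.06, 6.09 and 5.85 and relative differences of -0.11, -0.09 and -0.09. Sdhb, the iron-sulfur subunit, had levels of 8.56, 8.33, 8.35 and 7.84 and relative differences of -0.21, -0.20 and -0.47. Sdha therefore kept its place against the median gene from 5 to 15 weeks, while Sdhb was lower at 15 weeks than before.

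The membrane anchors of complex II, which bind ubiquinone and heme, also split. Sdhd had levels of 7.52, 7.20, 7.18 and 6.68, with relative differences of -0.30, -0.34 and -0.60, and was 1.51-fold lower at 15 weeks, just past the line. Sdhc had levels of 6.21, 6.02, 6.07 and 5.73, with relative differences of -0.17, -0.13 and -0.23. The Sdhd call was lost after quantile normalization (-0.25) and relative to the brightest 20% (-0.46).

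**Figure D3:**
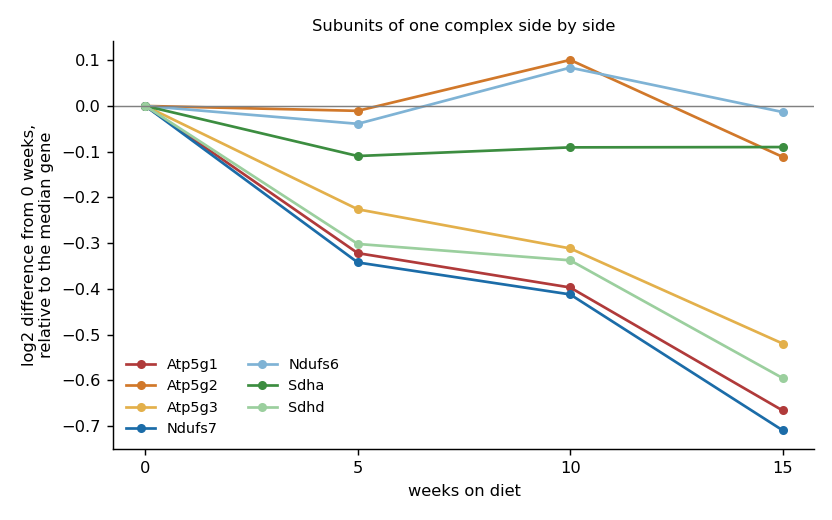
Relative log2 difference from 0 weeks (y axis) by weeks on the diet (x axis) for 7 subunits of complexes I, II and V, 1 array per time point and no error bars. Ndufs7, Sdhd, Atp5g1 and Atp5g3 lie at -0.52 or lower at 15 weeks, while Ndufs6, Sdha and Atp5g2 lie at -0.11 or nearer to 0.

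In complex III no member reached 1.5-fold in any comparison with 0 weeks. The Rieske iron-sulfur protein Uqcrfs1, the only catalytic subunit of this complex within the names used, was the furthest below, with levels of 6.84, 6.60, 6.50 and 6.08 and relative differences of -0.23, -0.33 and -0.51. The hinge protein Uqcrh, which helps cytochrome c dock, lay at -0.42 at 15 weeks. Uqcrq lay at 0.01, 0.05 and -0.16 and was the nearest to the median gene.

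Uqcrc2, a scaffold subunit of complex III, was spotted 10 times on each array. Its mean level was 6.88 (SD 0.040), 6.79 (SD 0.032), 6.67 (SD 0.023) and 6.38 (SD 0.036) at 0, 5, 10 and 15 weeks, over 10 spots each. The steps between arrays were larger than the SD between spots, but the spots share 1 RNA sample per array. The relative differences were -0.07, -0.19 and -0.24. For Uqcrb the 3 probes did not give 1 value: the brightest lay at -0.41 at 15 weeks, as did another at -0.43, and the remaining probe at -1.19.

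Complex IV divided into widely expressed subunits, none of which passed 1.5-fold, and tissue isoforms. Of the isoforms, Cox6a2, Cox6b2 and Cox7a1 passed 2-fold in a measured comparison with 0 weeks. Cox8b, not measured at 0 weeks, passed it in those between later arrays. Of all measured genes, 3.91%, 4.46% and 10.9% differed at least 2-fold from 0 weeks at 5, 10 and 15 weeks. From 5 to 10 and from 10 to 15 weeks the shares were 2.1% and 8.43%. The subunits and isoforms were not matched for brightness. The 11 structural subunits, Ndufa4 counted among them as it is found in this complex, had a median of -0.12, -0.13 and -0.29. Cox5b, a zinc-binding subunit, was the furthest below at 15 weeks, with levels of 7.40, 7.26, 7.14 and 6.67 and a relative difference of -0.48. Cox7c followed at -0.40, and Cox4i1, which takes part in the control of the enzyme by ATP, lay at -0.11, -0.13 and -0.25. Cox8a lay nearest to the median gene, at -0.22.

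Among the isoforms, Cox6a2 is the heart and skeletal muscle form of Cox6a1. Its levels were -2.50, -1.57, -1.83 and -0.90, lowest at 0 weeks and highest at 15 weeks. The relative differences were 0.96, 0.68 and 1.85, or 3.61-fold higher at 15 weeks, and it was the only measured member counted as higher against 0 weeks. Its spot at 0 weeks was dim and had 8 bright neighbours on the array, and it drops out when such spots are left out. With another background correction (normexp) the differences were 0.36, 0.29 and 0.88.

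Cox8b, the muscle form of Cox8a, had levels of -2.19, -3.28 and -2.32 at 5, 10 and 15 weeks. At 0 weeks it was not well above background. Against the dimmest signal above background on that array, it was at least 2.66-fold higher at 5 weeks, 1.24-fold at 10 weeks and 2.86-fold at 15 weeks. It was lower at 10 than at 5 weeks (-1.10) and higher at 15 than at 10 weeks, by 2.30-fold, so its levels followed no single direction. Of 13 skeletal muscle markers, 2, 3, 4 and 3 were above background at 0, 5, 10 and 15 weeks. Acta1 and Mb were above it on none, and Ckm at 10 weeks only. The log2 of the summed levels of the skeletal muscle markers was -0.82, -0.39, 0.01 and -0.12. Only 2 were measured against 0 weeks, and they differed. Tnni2, a fast muscle troponin, lay at 0.34, 0.25 and 1.44, and Atp2a1 at -0.33, -0.08 and -0.11. Of 7 heart muscle markers, 1 to 3 were above background. Of 8 white fat markers, 4, 7, 4 and 4 were above background at 0, 5, 10 and 15 weeks. The log2 of their summed levels was 6.75, 8.25, 9.33 and 9.05. At 0, 10 and 15 weeks this sum came from Cfd, Fabp4, Cidec and Car3 alone. Car3 was among the brightest 10% of measured genes. Adipoq, Plin1 and Retn were above background at 5 weeks only, the array on which Cox8b was brightest, and Lep on none. Of 7 brown fat markers, 3, 4, 4 and 5 were above background at 0, 5, 10 and 15 weeks. The log2 of their summed levels was 3.08, 5.34, 5.05 and 5.79. Among them Cidea was above background on all but the 0-week array, as Cox8b was, and Ucp1 and Dio2 on none. The part of these tissues in the values of Cox8b was not tested.

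Cox7a1, the muscle form of Cox7a2, had levels of 3.12, 1.97, 2.51 and 2.67. It was highest at 0 weeks and lowest at 5 weeks, with relative differences of -1.13, -0.60 and -0.20. It was thus 2.19-fold lower at 5 weeks and within 1.5-fold of its 0-week value at 15 weeks. This order differed from that of the structural subunits, which were lowest at 15 weeks.

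Cox6b2, the testis form of Cox6b1, had levels of 0.36, -0.29, -0.66 and -1.14, each lower than the one before. Its relative differences were -0.64, -1.02 and -1.25, or 2.38-fold lower at 15 weeks, and it was more than 1.5-fold lower in all 3 comparisons. Cox4i2, the lung form of Cox4i1, had levels of -0.36, -0.50, -0.48 and -0.74 and relative differences of -0.12, -0.11 and -0.13. Ndufa4l2, a relative of Ndufa4 known to respond to low oxygen, had levels of 0.68, 0.25, 0.73 and 0.66 and lay at -0.41, 0.05 and 0.22.

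**Figure D4:**
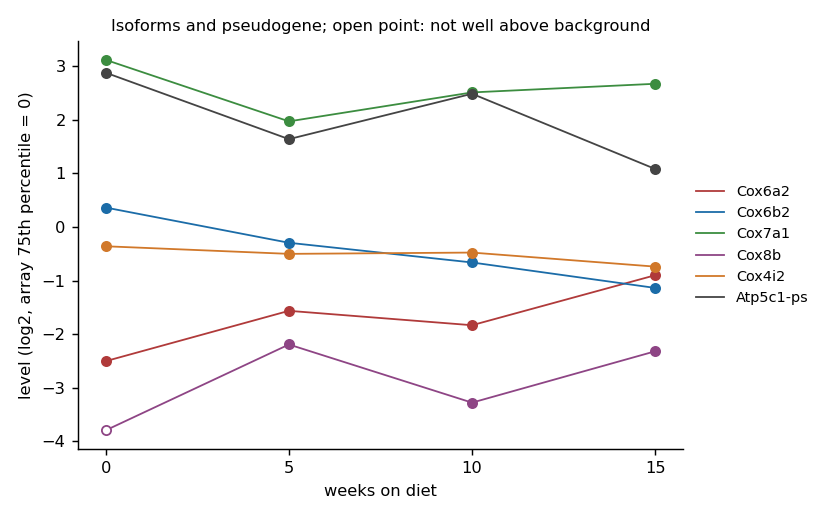
Log2 levels (y axis, array 75th percentile at 0) of 5 isoforms of complex IV subunits and of the pseudogene Atp5c1-ps by weeks on the diet (x axis), 1 array per time point with no error bars; the open point is not well above background. Cox6a2 ends higher and Cox6b2 lower than they start, Cox7a1 and Atp5c1-ps are lower at 5 than at 0 and 10 weeks, and Cox4i2 changes little.

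In complex V the F1 head, which makes ATP, had a median of -0.36 at 15 weeks, the stalk and membrane subunits -0.39 and the c-ring genes -0.52. The catalytic beta subunit Atp5b had levels of 9.15, 8.90, 8.82 and 8.42 and relative differences of -0.23, -0.32 and -0.48. The alpha subunit Atp5a1, its partner in the head, had levels of 7.67, 7.49, 7.50 and 7.11 and lay at -0.16, -0.16 and -0.31. Atp5c1, the rotating shaft, and Atp5d lay at -0.41 and -0.36 at 15 weeks. Atp5e, the smallest subunit of the shaft, stayed near the median gene at -0.01, 0.02 and -0.06.

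The 3 genes of the c subunit, whose upstream stretches are printed above, differed. Atp5g1 had levels of 8.68, 8.34, 8.28 and 7.77 and relative differences of -0.32, -0.40 and -0.67. Atp5g3 had levels of 8.95, 8.70, 8.63 and 8.18 and lay at -0.23, -0.31 and -0.52. Atp5g2 had levels of 8.17, 8.14, 8.26 and 7.81 and lay at -0.01, 0.10 and -0.11.

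Relative to the median gene, Atp5g1 and Atp5g3 were thus lower on every array after 0 weeks, and Atp5g2 lay on both sides of it. The Atp5g1 value rests on the brighter of its 2 probes (chromosome 11, 95934315 to 95934374 in mm9). The other probe (95930317 to 95930376), annotated to another transcript, had levels of 3.094, 3.096, 2.977 and 3.019 and lay at 0.02, -0.11 and 0.18. With the mean of both probes the 15-week difference of Atp5g1 was -0.24, within 1.5-fold. Over the 30 members with several measured probes, the median range between probes was 0.08 at 15 weeks, and Atp5g1 and Uqcrb were the only ones to disagree by 1.5-fold or more.

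Of the subunits that hold the head in place, Atp5o, which links the head to the peripheral stalk and gives the enzyme its sensitivity to oligomycin, was the furthest below. Its levels were 4.66, 4.42, 4.39 and 3.78, and its relative differences -0.22, -0.26 and -0.64, so that it was 1.56-fold lower at 15 weeks. Atp5h, another stalk subunit, lay at -0.54, and Atp5l, which helps the enzyme form dimers, at -0.25. Atp5s, a coupling factor now named Dmac2l, had levels of -0.40, -0.60, -0.77 and -1.32 and lay at -0.66 at 15 weeks. Against the spike-in controls Atp5o and Atp5s were within 1.5-fold (-0.38 and -0.40).

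Outside the complexes, the pseudogene Atp5c1-ps had levels of 2.88, 1.64, 2.49 and 1.08 and relative differences of -1.22, -0.38 and -1.55. It was lower at 5 and 15 weeks than at 0 and 10 weeks. Its parent gene Atp5c1, at -0.23, -0.19 and -0.41, had the same order of arrays with smaller differences. Signal from a pseudogene and from its parent cannot always be told apart by 1 probe. Atp5sl, now named Dmac2 and known to help assemble complex I, had levels of 4.02, 3.74, 4.15 and 3.29.

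The subunits encoded by mitochondrial DNA, which are not members by name, were close to the nuclear ones. All 13 were measured, and their medians were -0.12, -0.06 and -0.28 at 5, 10 and 15 weeks, with 11, 7 and 13 below the median gene and 0 past 1.5-fold. COX1, the catalytic subunit of complex IV, had levels of 10.84, 10.56, 10.85 and 10.21 and lay at -0.25, 0.02 and -0.38. ND2, a pump subunit of complex I, lay at 0.09, 0.11 and -0.08. At 10 weeks the mitochondrially encoded subunits were thus nearer to the median gene than the nuclear structural subunits (-0.06 against -0.14), a difference with no test.

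Cytochrome c, which carries electrons between complexes III and IV, gave lower values than most members. Cycs had levels of 7.48, 7.17, 6.96 and 6.49 and relative differences of -0.28, -0.51 and -0.74, and was 1.67-fold lower at 15 weeks. Cyc1, the cytochrome of complex III, lay at -0.18, -0.34 and -0.51. Both were lower on each array than on the one before, as Uqcrfs1 was.

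Other mitochondrial genes gave lists that can be set beside the members. The 78 genes of the mitochondrial ribosome had medians of -0.04, -0.06 and -0.17, with 0, 0 and 3 lower. The 3 were 3.85% of that list, against 8.14% of all genes. The 13 genes of the tricarboxylic acid cycle, which feeds electrons to the chain, had medians of -0.08, -0.32 and -0.30. In this list Fh1 (fumarase) and Dlst were lower at 15 weeks, at -0.88 and -0.68, while Cs, citrate synthase, lay at 0.49. The 2 lower genes were 15.4% of the list, against 8.14% of all genes. At 10 weeks 2 genes were also lower, the furthest being Ogdh at -0.60, against 4.63% of all genes. The median of the cycle genes was thus about as low at 10 weeks as at 15 weeks.

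Among 31 assembly factors of complexes II to V, 27 or 28 were measured, with medians of -0.04, -0.02 and -0.11. At 5, 10 and 15 weeks 2, 3 and 5 were lower, the last being 18.5% of those measured against 8.14% of all genes, and 0, 0 and 2 were higher. Cox10, which makes the heme of complex IV, was the furthest below, with levels of -0.17, -1.12, -1.90 and -1.89 and relative differences of -0.93, -1.73 and -1.47. The 7 assembly factors of complex I outside the Nduf names had medians of -0.12, -0.05 and -0.24, and none was lower or higher.

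Of 13 regulators of mitochondrial genes, 13, 12 and 12 were measured, with medians of -0.03, -0.04 and -0.23. Esrra, an estrogen-related receptor, had levels of 4.57, 4.13, 4.16 and 3.66 and was the only one past 1.5-fold at 15 weeks (-0.66). This was 8.33% of the regulators measured, near the 8.14% of all genes that were lower. Ppargc1a, a coactivator of mitochondrial biogenesis, had levels of 1.56, 2.24, 1.65 and 0.81, higher at 5 weeks (0.70) and at -0.51 at 15 weeks. Nrf1 lay at -0.07, -0.23 and -0.05, and Tfam, which packages and transcribes mitochondrial DNA, at -0.04, 0.01 and -0.21.

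**Figure D5:**
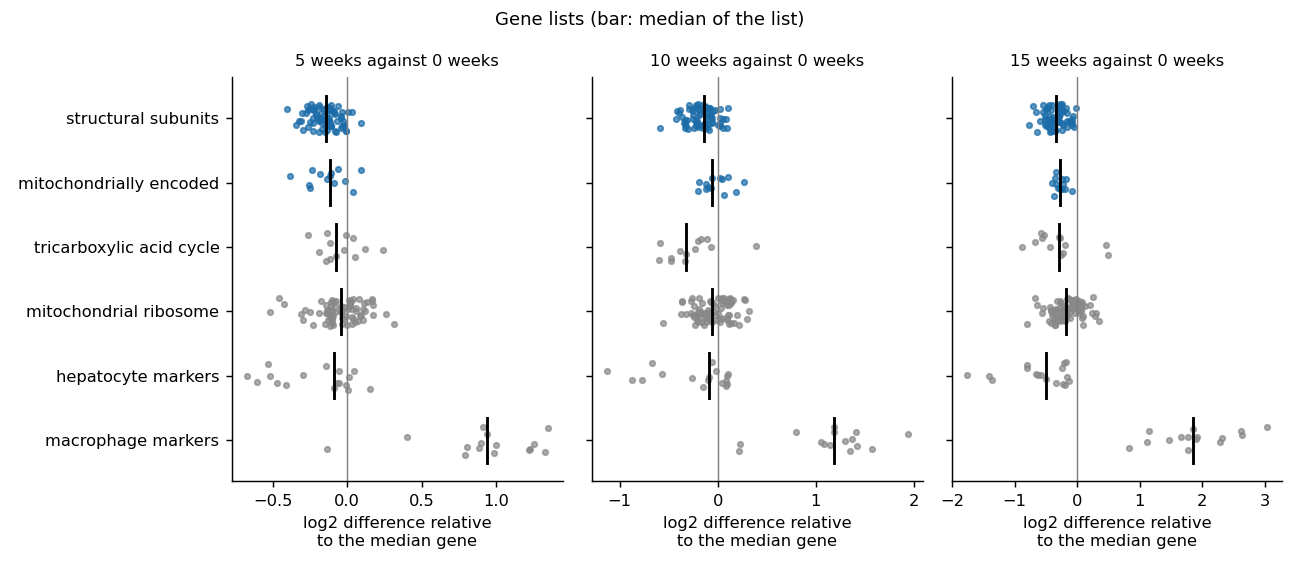
Relative log2 differences against 0 weeks (x axis, a separate range in each panel) of each measured gene in 6 lists (y axis) at 5, 10 and 15 weeks; bars are medians. The structural subunits form a tight group just below 0 whose median moves from -0.14 to -0.33, while the macrophage markers lie far to the right, at medians of 0.94 to 1.85.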

How the data were processed

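Liver RNA was labelled with Cy3 and hybridised to 1-colour Agilent arrays, 1 per time point. Per the file headers, the authors read them with Agilent Feature Extraction 10.7.3.1, whose processed signal is a background-subtracted fluorescence intensity on a linear scale. The deposited value table holds the same intensity divided by each array's median. Here the processed signal was divided by the 75th percentile of the array's non-control spots and taken to log2, outlier-marked spots were left out, repeat spots were averaged, and the brightest probe stood for a gene. Differences were taken relative to the median measured gene and counted at 1.5-fold. With 1 array per time point no test was run. The number of arrays limits the precision. Alternatives changed the scaling, normalization, background correction (normexp in limma 3.58.1, R 4.3.3), filters, probes, members and fold. Members named are those at least 2-fold different, the 3 at each end of a complex, core subunits, all of complex II, isoforms, undetected members and those with discordant probes; others, such as the motif examples, were chosen after their values were seen, and some genes are not reported here. The members and lists were chosen with earlier results of these data known. The procedure was tested on simulated data. Other tables used Python 3.11.15 with pandas 2.3.3.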

Additional observations from a re-analysis of the deposited data

How the results depend on the processing

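No paired analysis was possible because each time point has 1 array and the labels give no replicate numbers. Across 62 values and 16 alternative settings, 645 stayed close to the main value, 239 moved and 8 turned direction. The cause was not tested. The 645 include all 62 values from the deposited value table. That table differs from the processed signal by 1 constant per array, which the step to the median gene removes, so these could not move. The alternatives relative to the brightest 20% and against the spike-in controls were chosen after seeing the data.

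The members' median at 5 weeks (-0.14) moved to -0.22 when scaled to the array median and to -0.24 with no background filter. At 10 weeks (-0.14) these gave -0.26 and -0.23, and the spike-in controls gave -0.23. At 15 weeks (-0.33) the values were -0.58 as scaled to the 75th percentile, -0.50 by the array median, -0.063 by spike-in controls, -0.082 by quantile normalization, -0.15 with no filter, -0.19 relative to the brightest 20% and -0.18 for that reference after quantile normalization. From 5 to 10 weeks (-0.01) the spike-in controls gave -0.13. From 10 to 15 weeks (-0.17) the same settings gave -0.42 as scaled to the 75th percentile, 0.18 by spike-in controls, 0.049 by quantile normalization, -0.017 with no filter, -0.062 relative to the brightest 20% and -0.042 for that reference after quantile normalization. In that comparison the complex medians turned to 0.19, 0.17, 0.16, 0.21 and 0.14 for complexes I to V by spike-in controls, and to 0.12 for complex III and 0.12 for complex IV after quantile normalization. By spike-in controls the median of all genes was 0.35 there. The range of the complex medians at 15 weeks (0.13) cannot change where a setting shifts all genes alike, as the scalings and the brightest 20% do, and was 0.13 after quantile normalization, 0.11 under normexp and 0.17 with the mean of probes.

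The 8 members lower at 15 weeks became 43 as scaled, 33 by the array median, 2 by spike-in controls, 4 after quantile normalization, 3 with no filter, 3 relative to the brightest 20%, 5 with structural subunits only and 2 at 2-fold. The 3 lower at 5 weeks became 0 with structural subunits only. The 3 lower at 10 weeks became 1 at 2-fold, after quantile normalization with either reference, relative to the brightest 20% and with structural subunits only. The 1 member lower from 5 to 10 weeks became 0 under normexp, with genes above background on all arrays and with structural subunits only. The 2 lower from 10 to 15 weeks became 4 as scaled and with the mean of probes, 1 at 2-fold, with no filter, under normexp, after quantile normalization, relative to the brightest 20%, by spike-in controls and without spots with bright neighbours, and 0 with structural subunits only.

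The 1 member higher at 5 weeks became 0 at 2-fold, under normexp, without spots with bright neighbours and with structural subunits only, and 2 with no filter. The 1 higher at 10 weeks became 0 in these 4 settings and by the array median. The 1 higher at 15 weeks became 0 without spots with bright neighbours and with structural subunits only, and 2 with no filter. The 1 higher from 5 to 10 weeks became 0 at 2-fold and with structural subunits only. The 2 higher from 10 to 15 weeks became 0 under normexp and with structural subunits only, and 1 with genes above background on all arrays.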

Other observations

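Carriers and uncoupling proteins of the inner membrane, which use the proton gradient that the chain makes, gave mixed values at 15 weeks. Slc25a4, an ADP and ATP carrier, had log2 levels of 2.43, 2.46, 2.07 and 3.09 at 0, 5, 10 and 15 weeks and lay at 0.91 at 15 weeks, while Slc25a5, another such carrier, lay at -0.36. The phosphate carrier Slc25a3 lay at -0.43. Ucp2 and Ucp3 had levels of 0.85, 1.01, 0.98 and 1.52, and of 0.22, 0.40, 0.30 and 0.96, and both were higher at 15 weeks (0.92 and 0.99). Ucp1, the brown fat form, was not well above background on any array.

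The 11 genes of mitochondrial fusion, fission and mitophagy had medians of -0.12, -0.20 and -0.31 at 5, 10 and 15 weeks. Among them Bnip3, a mitophagy receptor, lay at -0.93 at 15 weeks. The 12 measured genes of ubiquinone synthesis had medians of -0.03, -0.12 and -0.11. Atpif1, the inhibitor of ATP synthase, lay at 0.05, 0.25 and 0.68, and Cox19 at 0.20, 0.15 and 0.72. Both were more than 1.5-fold higher at 15 weeks, when all 74 structural subunits were below the median gene. They are the 2 higher assembly factors counted above, 7.41% of those measured against 14.9% of all genes.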
